A study of Mus musculus with 6 samples.

Results

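The 34 genes described here drive or mark the cell division cycle. They were chosen by name, with earlier results of these data known. All 34 were found among the 31017 genes counted in each of the 6 libraries. The set holds 11 S-phase genes (Mcm2, Mcm3, Mcm4, Mcm5, Mcm6, Mcm7, Pcna, Rrm1, Rrm2, Tyms and Tk1) and 21 mitosis genes (Mki67, Top2a, Cdk1, Ccnb1, Ccnb2, Ccna2, Birc5, Ube2c, Cenpa, Cenpe, Cenpf, Tpx2, Bub1, Bub1b, Aurka, Aurkb, Plk1, Cdc20, Nusap1, Kif11 and Kif23). Hmgb2 and Stmn1, which are raised in dividing cells but also used outside the cycle, were kept apart. All 34 are protein coding and lie on 15 chromosomes. Their levels were read in fibroblasts, myeloid cells, endothelial cells and B-lineage cells of the mouse knee synovium, the inner layer of the joint capsule.

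The cells came from 6 groups of 1 library, each made from the pooled knee synovium of 10 mice and sequenced as single cells with a droplet 3' kit after a sort for living cells with no gate for cell type. The groups were healthy wild type mice, healthy Notch3-/- knockout mice, arthritic wild type mice, arthritic Notch3-/- knockout mice and, among arthritic mice, those treated with an isotype control and those treated with the antiNotch3 mAB, a monoclonal antibody against the receptor. Arthritis was started by serum transfer from K/BxN mice, whose autoantibodies inflame the joints of recipients. The labels give neither the age of the mice nor the genotype of the antibody-treated animals. Values of all 6 libraries are given in this order throughout, and the last pair is called the isotype and the anti-Notch3 library. With 1 library per group, no pair of libraries has a replicate check, and the spread between mice of a group was not measured.

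In a dividing cell the genome is copied in S phase and parted in mitosis. The S-phase genes encode the helicase that opens DNA (Mcm2 to Mcm7), the clamp that holds the copying polymerase (Pcna) and enzymes that supply DNA building blocks (Rrm1, Rrm2, Tyms, Tk1). They are switched on by E2F factors as cells leave rest. The mitosis genes encode cyclins and their kinase (Ccna2, Ccnb1, Ccnb2, Cdk1), kinases and motors of the spindle (Aurka, Aurkb, Plk1, Kif11, Kif23), parts of the centromere and its checkpoint (Cenpa, Cenpe, Cenpf, Bub1, Bub1b) and arms of the complex that ends mitosis (Cdc20, Ube2c). Many of them are held silent in resting cells by the DREAM complex and released late in the cycle. In the resting synovium few fibroblasts divide, and in arthritis the lining thickens. Notch3 is a receptor on fibroblasts and mural cells that reads ligands of neighbouring endothelium.

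Levels are given as CPM, the UMIs (unique molecular identifiers, 1 per captured transcript) of a gene per 1000000 UMIs of the library or cell class. Notch3 itself was at 5.21, 0.285, 5.74, 0.252, 3.66 and 2.15 CPM over all barcodes. Both knockout libraries were low, as labelled, and the antibody does not delete the gene. Of 18491 barcodes, 414 with over 10% mitochondrial UMIs were left out. Cells were gated by UMIs of marker genes that hold no cell-cycle gene, which gave 11003 fibroblasts, 4615 myeloid, 1042 endothelial and 171 B-lineage cells. The gates held against markers they did not use: Col1a1 was at 3205 to 9856 CPM in fibroblasts and 19.7 to 116 CPM in myeloid cells, and Ptprc, the leukocyte antigen CD45, was at 0.7 to 2.2 CPM in fibroblasts and 150 to 262 CPM in myeloid cells. Summed UMIs per library ran from 11636998 to 24535233, and median UMIs per fibroblast from 4501 to 8305. In all, 177 barcode sequences occurred in more than 1 library.

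Libraries differed in more than their labels. The healthy wild type and arthritic knockout libraries held 79 and 74 of the 171 B-lineage cells, and 21 and 9 of the 31 erythroid cells, which are red-cell precursors of the marrow. In fibroblasts, a list of inflammatory genes summed to 193, 527, 3618, 208, 2213 and 320 CPM, so that the arthritic knockout library lay near the healthy wild type library. A list of dissociation-stress genes summed to 22372, 31108, 17770, 36176, 14272 and 21710 CPM, lowest in the isotype and arthritic wild type libraries. The parts of marrow carry-over, stress and inflammation in the results that follow were not tested.

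Promoters of 29 of the 34 genes were matched in RefSeq (GRCm38.p6), and Mcm4, Ccna2, Tpx2, Aurkb and Stmn1 were not. Of these, 6 are printed as examples of both groups: 4 mitosis genes with wide differences between the fibroblast libraries, and Mcm5 and Mcm6 of the helicase, which differed less. Each runs 5′ to 3′ towards the gene's start, covers up to 150 bases before it, and has in capitals the matches to 3 motifs searched on both strands: the CHR element TTTGAA and the CCAAT box, both frequent in late-cycle promoters, and E2F elements (TTCCCGC as well as TTGGCGC, and further TTCGCGC besides TTGCCGC). The Cdk1 stretch leaves out the 26 bases next to the start, where an annotated exon begins.
Cdk1 (chr10:69352939-69353062, minus strand): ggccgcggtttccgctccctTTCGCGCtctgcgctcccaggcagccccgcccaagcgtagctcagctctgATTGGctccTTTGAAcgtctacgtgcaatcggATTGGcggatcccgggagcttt
Top2a (chr11:99024190-99024339, minus strand): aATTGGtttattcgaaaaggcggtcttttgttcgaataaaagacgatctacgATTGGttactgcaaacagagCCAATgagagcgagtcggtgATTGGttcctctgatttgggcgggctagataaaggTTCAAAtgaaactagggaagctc
Ccnb2 (chr9:70421555-70421704, minus strand): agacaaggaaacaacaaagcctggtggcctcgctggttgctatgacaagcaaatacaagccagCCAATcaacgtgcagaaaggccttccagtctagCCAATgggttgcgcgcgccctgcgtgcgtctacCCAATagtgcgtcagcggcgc
Birc5 (chr11:117849087-117849236, plus strand): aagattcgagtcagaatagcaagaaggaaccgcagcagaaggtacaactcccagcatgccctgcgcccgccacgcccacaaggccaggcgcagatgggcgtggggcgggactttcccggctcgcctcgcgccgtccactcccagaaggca
Mcm5 (chr8:75109359-75109508, plus strand): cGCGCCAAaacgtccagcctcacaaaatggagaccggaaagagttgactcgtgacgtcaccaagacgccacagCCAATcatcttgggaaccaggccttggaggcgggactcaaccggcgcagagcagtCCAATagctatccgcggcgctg
Mcm6 (chr1:128359706-128359855, minus strand): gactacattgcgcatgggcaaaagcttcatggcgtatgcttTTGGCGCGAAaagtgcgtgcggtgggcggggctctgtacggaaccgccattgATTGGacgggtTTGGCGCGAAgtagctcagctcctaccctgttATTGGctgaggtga

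In the 250 bases before the start, the CHR element was present in 7 of 18 mitosis promoters and 1 of 10 S-phase promoters, against 16.0% of 32851 mouse promoters. The CCAAT box was present in 16 of 18 mitosis and 8 of 10 S-phase promoters, against 33.8% of all. E2F elements were present in 3 of 18 and 5 of 10, against 7.89%. In Cdk1 the CHR element lies 66 to 71 bases before the start with CCAAT boxes on either side, and in Top2a it lies 18 to 23 bases before the start in reverse. Mcm6 holds TTGGCGC at 40 to 46 and at 103 to 109 bases before the start, each overlapping a reverse match. The CHR match of Ccnb2 lies outside the printed stretch, and Birc5 matched none of the motifs. These matches describe the sequences only.

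In fibroblasts the S-phase genes were nearly level across libraries while the mitosis genes were not. The 11 S-phase genes summed to 80.6, 96.6, 89.6, 101, 97.5 and 92.0 CPM, scaled within the fibroblasts of each library. The 21 mitosis genes summed to 12.0, 76.5, 102, 18.4, 123 and 44.6 CPM. Exact Poisson 95% intervals, which cover counting error only, ran from 10.3 to 13.8 in the healthy wild type library and from 117 to 128 in the isotype library. The mitosis sum was thus low in the healthy wild type and arthritic knockout libraries, high in the arthritic wild type, isotype and healthy knockout libraries, and intermediate in the anti-Notch3 library. A few cells carried much of it: the 5 fibroblasts with the most mitosis UMIs held 15.6, 53.2, 36.5, 49.3, 38.5 and 66.4% of them, against 3.43 to 14.5% for S-phase UMIs.

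**Figure D1:**
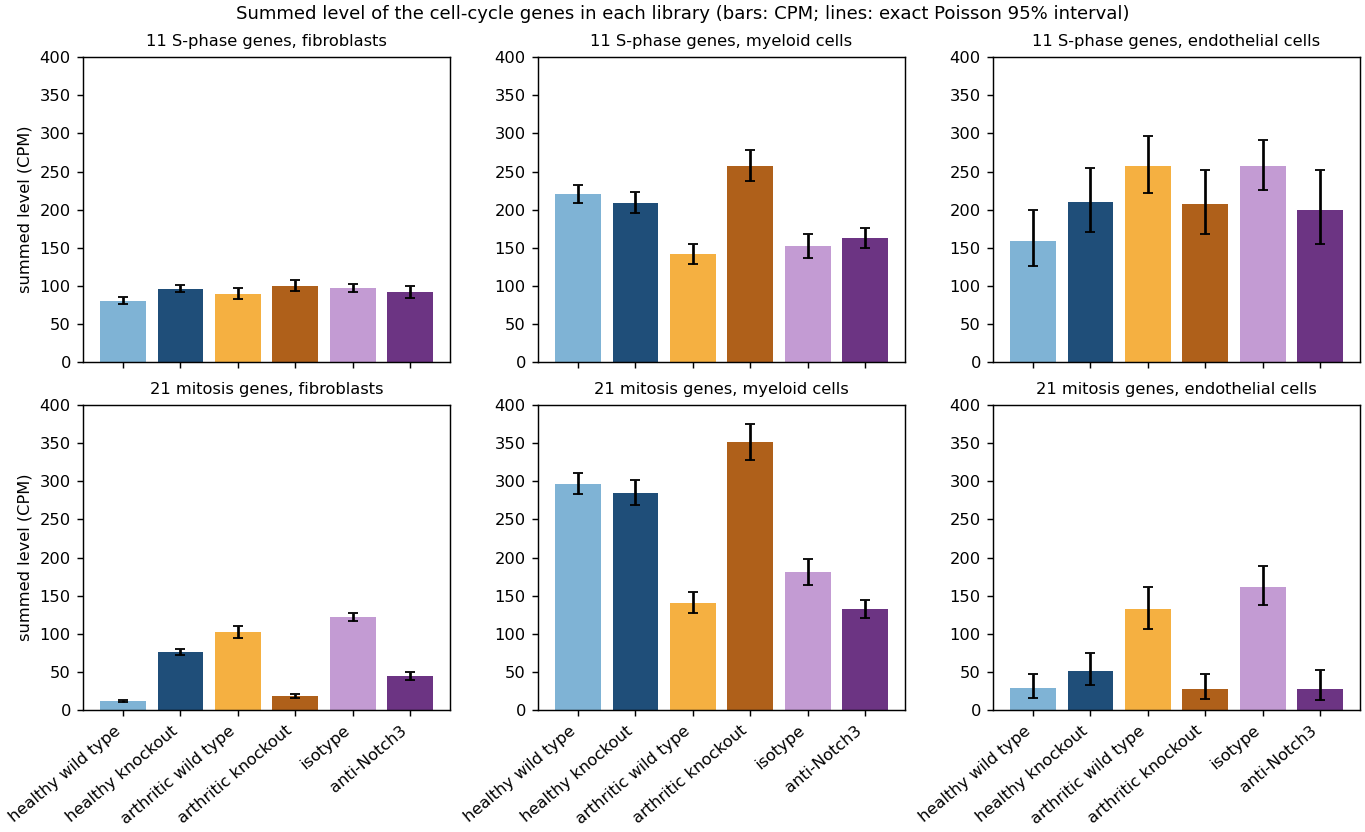
Summed level of the 11 S-phase genes (top) and 21 mitosis genes (bottom) in CPM on the vertical axes, for each library in fibroblasts, myeloid and endothelial cells; bars are 1 library each and lines are exact Poisson 95% intervals. In fibroblasts the S-phase bars stay between 80.6 and 101 CPM, while the mitosis bars run from 12.0 to 123 CPM.

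Pcna, Mcm6 and Tyms varied by less than 2-fold between the fibroblast libraries, as the S-phase sum did. Pcna was at 22.8, 38.9, 29.9, 41.3, 25.2 and 26.4 CPM, with its 2 highest values in the knockout libraries. Mcm6 was at 6.82, 9.36, 6.12, 9.21, 10.8 and 11 CPM, and Tyms, which makes thymidylate, at 9.91, 12.6, 13.6, 14.6, 15.5 and 14.5 CPM. Rrm2 at 2.83 to 6.75 CPM and Mcm5 at 1.21 to 3.34 CPM varied more. Tk1, a thymidine kinase, varied most of the 11, at 1.09, 2.41, 3.76, 0.256, 6.57 and 1.63 CPM, an order close to that of the mitosis sum. Where these transcripts sat within the class also differed. Among fibroblasts, 72.3% of Tk1 UMIs and 42.1% of Rrm2 UMIs were in the 95 cells with at least 3 mitosis genes, against 6.2% of Pcna and 5.1% of Mcm4 UMIs. Pcna UMIs were found in 16.1% of the other fibroblasts, so most of its level came from cells with fewer than 3 mitosis genes.

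Cdk1, Birc5, Ube2c, Cenpa, Top2a, Mki67 and Stmn1 each had their 2 lowest values in the healthy wild type and arthritic knockout libraries. Cdk1, the kinase that starts mitosis (chromosome 10, 69335146 to 69352938, minus strand), was at 0.386, 5.91, 5.01, 0.128, 12.53 and 1.63 CPM, from 6, 103, 36, 1, 204 and 11 UMIs. Birc5, survivin of the chromosome passenger complex (chromosome 11, 117849251 to 117855743), was at 0.708, 6.14, 10.9, 1.54, 13.0 and 3.41 CPM. The isotype and arthritic wild type libraries were highest for Birc5, and no other library came within 1.5-fold of them. Ube2c, which tags cyclins for destruction (chromosome 2, 164769898 to 164778822), was at 0.515, 8.04, 10.0, 0.64, 11.6 and 3.11 CPM. Cenpa, the histone of the centromere (chromosome 5, 30666777 to 30674830), was at 0.965, 9.13, 25.9, 3.71, 17.9 and 6.96 CPM. For Ube2c, Cenpa and Cdk1 alike, the anti-Notch3 library lay between the low and the high libraries. Top2a, which untangles copied DNA, was at 0.708, 6.43, 2.78, 0.896, 8.23 and 1.48 CPM. Mki67, which encodes the Ki-67 antigen, was at 0.193, 3.10, 2.64, 0.640, 4.05 and 1.63 CPM. The checkpoint kinases were near the limit of detection, with Bub1 at 0 to 15 and Bub1b at 0 to 18 UMIs per library. Stmn1, which loosens microtubules, was at 4.70, 27.5, 33.8, 7.80, 58.5 and 34.4 CPM. Hmgb2, a chromatin protein, was at 37.8, 52.0, 48.3, 67.6, 48.3 and 52.4 CPM, with the arthritic knockout library highest.

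**Figure D2:**
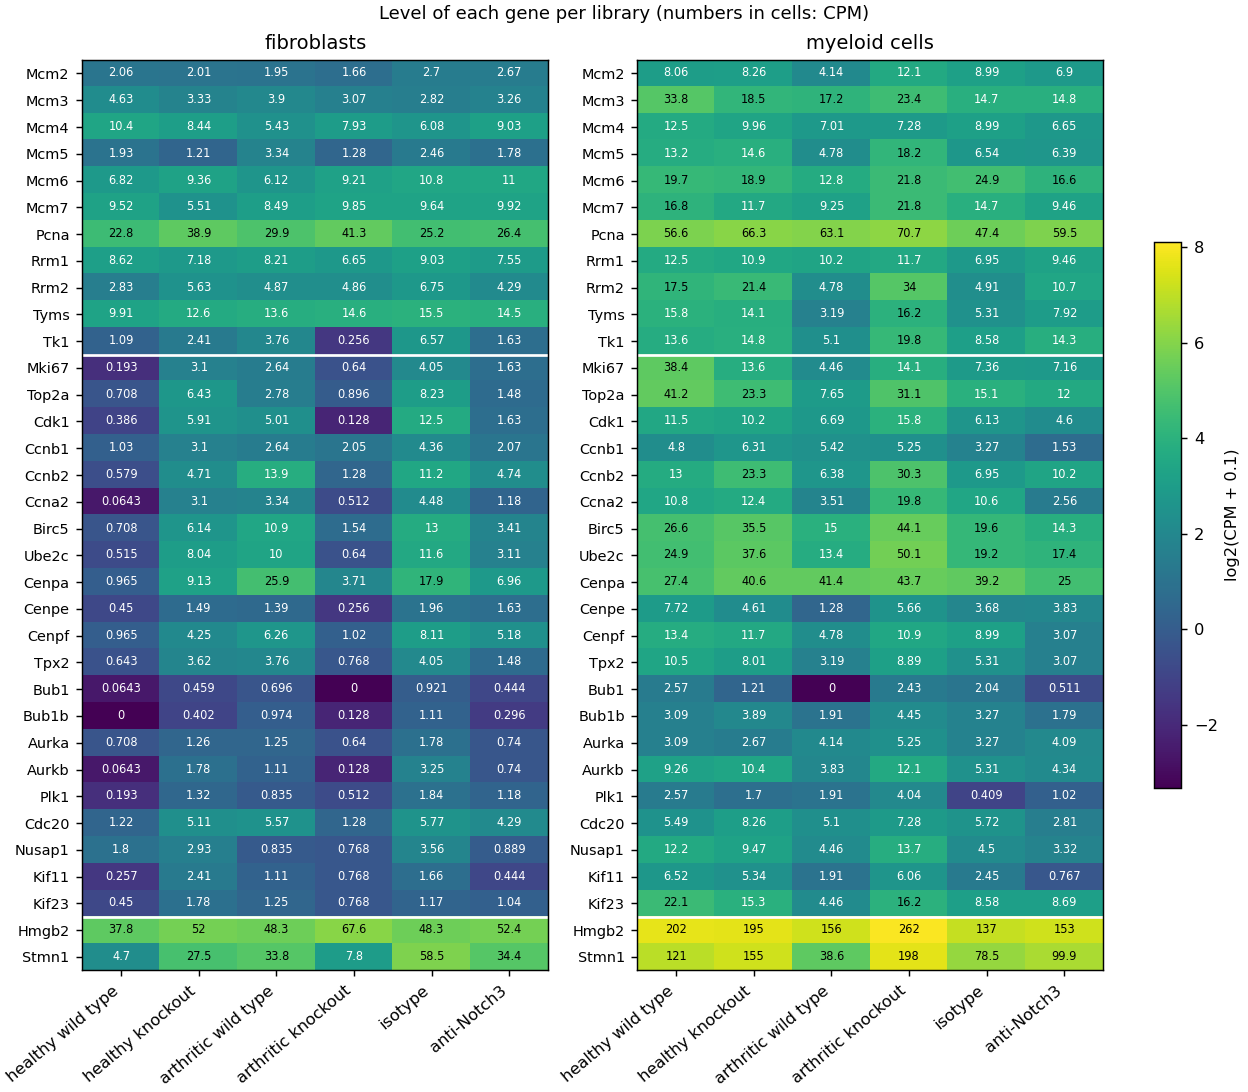
Level of each of the 34 genes (rows; S-phase, mitosis, then Hmgb2 and Stmn1) in each library (columns) for fibroblasts and myeloid cells; colour is log2(CPM + 0.1) and the printed numbers are CPM. In fibroblasts the rows of Cdk1, Birc5, Ube2c and Top2a are darkest in the healthy wild type and arthritic knockout columns, as for Cdk1 at 0.386 and 0.128 CPM, whereas in myeloid cells Cdk1 has its highest values, 11.5 and 15.8 CPM, in these columns.

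A cell was called mitosis-positive when it had UMIs of at least 3 of the 21 mitosis genes and S-phase-positive with at least 4 of the 11 S-phase genes. Of the fibroblasts, 1 of 1765, 16 of 3448, 33 of 1046, 2 of 1667, 36 of 2037 and 7 of 1040 were mitosis-positive. These are shares of 0.0567, 0.464, 3.15, 0.12, 1.77 and 0.673%, and the exact Clopper-Pearson 95% interval of the arthritic wild type share, 2.18 to 4.40%, overlaps only that of the isotype library, 1.24 to 2.44%. With each cell thinned to 2000 UMIs, which leaves out 32 to 88 shallower fibroblasts per library, the shares were 0, 0.446, 1.42, 0.125, 0.908 and 0.398%. The high libraries remained the arthritic wild type and isotype ones at equal depth. Another 8, 6, 24, 3, 30 and 6 fibroblasts had 1 gene fewer than the threshold, so the shares of all 6 libraries depend on it. In the healthy wild type and arthritic knockout libraries these cells outnumber the 1 and 2 mitosis-positive ones. S-phase-positive shares were 0.68, 0.58, 0.86, 0, 1.23 and 0.577%, and 0 of 1667 cells in the arthritic knockout library allows a share of up to 0.18%, taking 3 cells of the total as the limit that a count of 0 allows. Both marks overlapped in part: 29 of the 33 mitosis-positive fibroblasts in the arthritic wild type library were not S-phase-positive, against 18 of 36 in the isotype and 5 of 16 in the healthy knockout library.

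**Figure D3:**
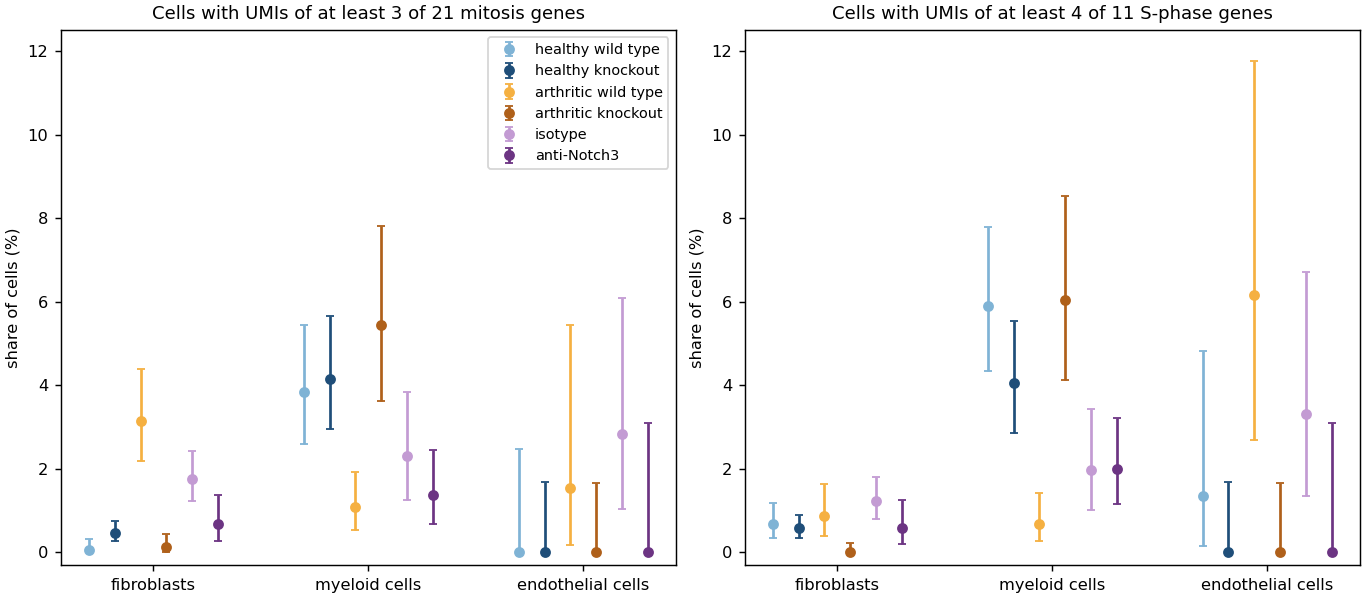
Share of cells (%, vertical axis) with UMIs of at least 3 of 21 mitosis genes (left) and at least 4 of 11 S-phase genes (right) in fibroblasts, myeloid and endothelial cells; points are libraries and lines exact 95% intervals. The left panel shows fibroblasts highest in the arthritic wild type library, at 3.15%, and myeloid cells highest in the arthritic knockout library, at 5.44%.

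The mitosis-positive fibroblasts differed from the other fibroblasts of their library in genes that did not define them. Other mitosis genes from a separate list summed to 7269 CPM against 146 in the healthy knockout library, 1666 against 115 in the arthritic wild type, 2752 against 134 in the isotype and 2786 against 139 in the anti-Notch3 library. Genes of the sublining, the deeper layer of the synovium, summed to 1170 against 3321, 904 against 4700, 487 against 2271 and 354 against 3492 CPM in these libraries. They were lower in the mitosis-positive cells of all 4 libraries. The stress list was also lower there, at 26182 against 31152 CPM in the healthy knockout, 5698 against 18301 CPM in the arthritic wild type, 6320 against 14543 CPM in the isotype and 12601 against 21802 CPM in the anti-Notch3 library. Among fibroblasts with at least 5 UMIs of lining genes, 5.06% were mitosis-positive in the arthritic wild type and 3.30% in the isotype library, against 1.99 and 1.40% of those with at least 5 UMIs of sublining genes. Lining genes did not mark the highest share in either library: by inflammatory genes it was 5.54 and 2.80%, by wound genes 2.41 and 2.29%, and by tendon genes 4.17 and 3.37%, from 3 of 72 and 18 of 534 cells. These sets share cells, and the differences between them were not tested. Mitosis-positive fibroblasts were also deeper, with a median of 8128 against 6323 UMIs in the arthritic wild type and 12397 against 7664 in the isotype library, and the part of depth in these shares was not tested. Scrublet, a doublet caller, marked none of the 95.

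Targeting of Notch3 in arthritis was tested over the 2 arthritic pairs, knockout against wild type and anti-Notch3 against isotype, with pair as a block. In fibroblasts 4 of the 26 members tested fell, all of them mitosis genes, and none of the 11 S-phase genes passed; 1.54% of 11791 genes tested were called lower by edgeR's quasi-likelihood test (Benjamini-Hochberg adjusted p under 0.05). Cdk1 fell by 3.35 on the log2 scale (SE 0.479, edgeR adjusted p = 0.0222). Birc5 fell by 2.23 (SE 0.317, edgeR adjusted p = 0.0218), Ube2c by 2.55 (adjusted p = 0.0433) and Cenpa by 1.96 (adjusted p = 0.0423). All 4 were lower in the targeted library of both pairs, but these pairs are the ones that called them, so this is no separate support. The median difference over the 13 mitosis genes tested was -1.96, against 0.00 over all genes, and over the 11 S-phase genes it was 0.02.

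Other members missed the threshold in the same fit. Top2a was at -2.05 (edgeR adjusted p = 0.0606), Tk1 at -2.48 (0.0633), Ccna2, the cyclin of S phase and G2, at -2.14 (0.0732) and Stmn1 at -1.29 (0.0903). Mcm4 leaned the other way, at 0.64 (adjusted p = 0.227). The 8 members not tested were Bub1, Bub1b, Aurka, Aurkb, Plk1, Nusap1, Kif11 and Kif23, whose counts were too low. This model takes deletion and antibody block for the same effect and has 1 residual degree of freedom. Without the pair block no member passed, with adjusted p between 0.134 and 0.194 for the 4 called genes.

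Each pair on its own compares single libraries, with no test. Of the mitosis genes with at least 20 UMIs in a pair, 11 of 12 were at least 1.5-fold lower in the arthritic knockout than in the arthritic wild type library, and 16 of 20 were lower in the anti-Notch3 than in the isotype library. The same fold was passed by 17.4 and 13.6% of all genes in these pairs. The medians over all 21 mitosis genes were -2.20 and -1.35 on the log2 scale, against -0.08 and -0.07 over all genes. Of the S-phase genes, 2 of 11 were lower in each pair, not far from the shares of all genes. None was at least 1.5-fold higher in either pair, and the share of all genes that were higher is not given here. The medians over the 11 S-phase genes were -0.004 and 0.004 on the log2 scale.

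In healthy joints the mitosis genes stood the other way round. All 19 mitosis genes with at least 20 UMIs were at least 1.5-fold higher in the healthy knockout than in the healthy wild type library, where 10.2% of all genes were, and the median over the 21 was 2.95 on the log2 scale, against -0.12 over all genes. Of the S-phase genes 3 of 11 were higher and 2 lower, where 16.9% of all genes were lower. In the healthy knockout library 53.2% of the mitosis UMIs sat in 5 cells, and the 16 positive cells were 0.464% of its fibroblasts. The healthy pair is a single pair of libraries, so genotype and library cannot be told apart there.

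**Figure D4:**
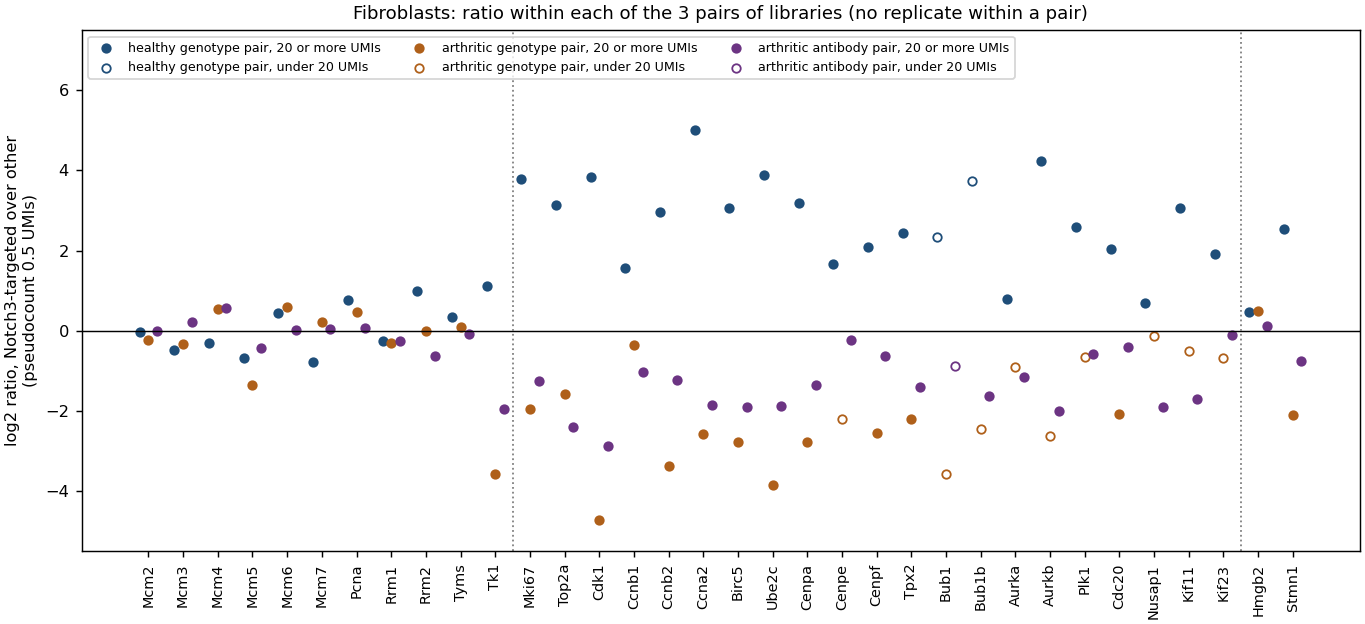
log2 ratio of the Notch3-targeted over the other library (vertical axis, pseudocount 0.5 UMIs) for each of the 34 genes in fibroblasts, by pair; filled points have at least 20 UMIs in the pair, and no pair has a replicate. S-phase points lie around 0 and mitosis points split, with medians of 2.95 in the healthy pair, -2.20 in the arthritic genotype pair and -1.35 in the antibody pair.

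The difference between the arthritic and the healthy effect of Notch3 targeting was tested in a model added after the data were seen. It called 7 members in fibroblasts, all with a more negative effect in arthritis, where 0.365% of 13431 genes were called in that direction. They were Top2a, Cdk1, Ccna2, Birc5, Ube2c, Cenpa and Stmn1, with differences from -7.61 for Ccna2 to -3.93 for Stmn1 and edgeR adjusted p from 0.0251 to 0.0426. DESeq2 gave adjusted p from 2.52e-05 to 0.0337 for the same 7. No S-phase gene was called; Tk1 was at -3.71 (edgeR adjusted p = 0.116). The spread of the single healthy pair was taken from the arthritic pairs. Over all 3 pairs edgeR called 0 of 33 members and no other gene in fibroblasts, with 2 members (Pcna and Hmgb2) and 1016 genes at an unadjusted p under 0.05. DESeq2 called 158 genes there and 0 members.

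Arthritis against healthy, over 4 and 2 libraries, called no member by edgeR or DESeq2 in the 3 classes tested, fibroblasts, myeloid and endothelial cells. EdgeR called no other gene, and DESeq2 called 44 in fibroblasts, 63 in myeloid and 4 in endothelial cells. In fibroblasts 0 of 33 members tested, in myeloid cells 2 of 32 and in endothelial cells 1 of 6 were at an unadjusted edgeR p under 0.05. Of all genes, 1037 of 12827, 940 of 10515 and 435 of 6505 were at such a p in these 3 classes. The mean mitosis-positive share of fibroblasts was 1.43% in arthritic and 0.260% in healthy libraries (two-sided exact permutation p = 0.267; the smallest this design allows is 0.133). The comparisons of single libraries went opposite ways in the 2 genotypes. Between the wild type libraries, 13 of 14 mitosis genes with at least 20 UMIs were at least 1.5-fold higher in arthritis, where 15.2% of all genes were. Between the knockout libraries, 18 of 19 were at least 1.5-fold lower, where 9.82% of all genes were. These comparisons share their libraries with the genotype pairs described for fibroblasts.

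Myeloid cells, the macrophages, monocytes and dendritic cells of the joint, carried more of the cycle genes than fibroblasts. Their mitosis genes summed to 297, 285, 141, 351, 181 and 132 CPM and their S-phase genes to 220, 209, 142, 257, 152 and 163 CPM. Both sums were highest in the arthritic knockout library and high in the healthy libraries. In fibroblasts the S-phase sum was also highest in the arthritic knockout library, at 101 CPM. The fibroblast mitosis sum was low there, at 18.4 CPM. Against fibroblasts, with the library as a block, 30 of 34 members were higher in myeloid cells, where edgeR called 30.4% of 13057 genes higher. Kif23, a motor of cell separation, was 3.51 higher on the log2 scale (SE 0.404), Aurkb 2.86 (SE 0.513), Top2a 2.77 (SE 0.525) and Mcm3 2.49 (SE 0.174), all at adjusted p under the threshold. Most Kif23 UMIs lay outside mitosis-positive cells. In myeloid cells 33.9% of them were in cells with at least 3 other mitosis genes, against 67.5% for Aurkb and 88.9% for Top2a. The 9 S-phase genes called included Mcm5 at 2.41 and Pcna at 0.99. Mcm4 at 0.13, Tyms at -0.35, Plk1 at 1.02 and Cdc20 at 0.72 did not pass. The medians were 1.95 over the mitosis genes and 1.09 over the S-phase genes, against -0.03 over all genes. Without the healthy wild type and arthritic knockout libraries, an alternative added after the data were seen, 19 of 32 members passed. The share of all genes called in that alternative is not given here.

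**Figure D5:**
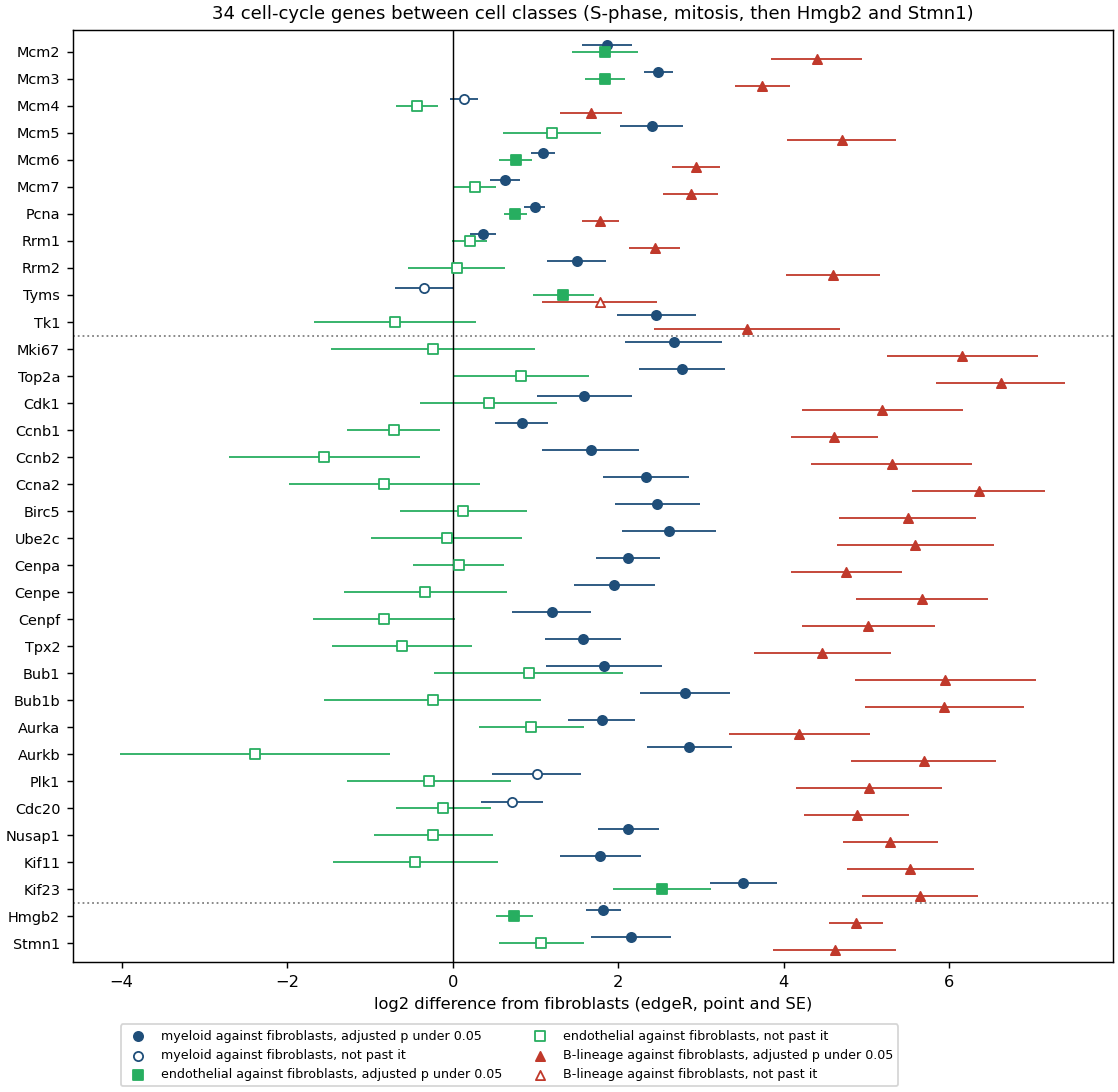
log2 difference from fibroblasts (horizontal axis; point and SE, edgeR) of each of the 34 genes in myeloid, endothelial and B-lineage cells; filled symbols passed an adjusted p of 0.05 and dotted lines part S-phase genes, mitosis genes, and Hmgb2 with Stmn1. Myeloid points lie mostly to the right of 0, B-lineage points further right, and endothelial points of mitosis genes around 0 except Kif23 at 2.53.

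The share of mitosis-positive myeloid cells was 3.84, 4.16, 1.08, 5.44, 2.31 and 1.38%, and of S-phase-positive cells 5.89, 4.05, 0.688, 6.05, 1.98 and 2%. The mitosis share was above that of fibroblasts in 5 of 6 libraries and below it in the arthritic wild type library, with a mean difference of 1.99 percentage points (exact sign-flip permutation p = 0.156, adjusted over 6 comparisons 0.312). For S phase the mean difference was 2.79 points (exact p = 0.0625, adjusted 0.312; the smallest p here is 0.0312). In the 3 libraries with the highest shares, 8 of 30, 8 of 38 and 6 of 27 mitosis-positive myeloid cells were gated as resident macrophages. Among cells gated by resident genes 1.53, 1.68 and 2.25% were mitosis-positive in the healthy wild type, healthy knockout and arthritic knockout libraries, against 10.1, 7.55 and 10.1% by monocyte genes and 6.15, 8.13 and 11% by dendritic genes. The other libraries did not all show this order: in the arthritic wild type, isotype and anti-Notch3 libraries 0 of 116, 1 of 136 and 2 of 244 cells gated by resident genes were mitosis-positive, against 8 of 505, 4 of 160 and 3 of 255 by monocyte genes and 0 of 39, 2 of 35 and 0 of 76 by dendritic genes. By the limit of 3 cells, the counts of 0 allow shares of up to 2.59% of resident-gated cells in the arthritic wild type library, and 7.69 and 3.95% of dendritic-gated cells in the arthritic wild type and anti-Notch3 libraries. Resident genes summed to 489 CPM in the mitosis-positive against 2962 in the other myeloid cells of the healthy wild type library, and to 223 against 1996 in the healthy knockout library. In the arthritic wild type library 49.7% of myeloid cells were gated by monocyte genes, and 1.58% of those were mitosis-positive. A list of marrow progenitor genes summed to 120 CPM in the mitosis-positive and 4.04 in the other myeloid cells of the healthy wild type library, but to 48.7 in the mitosis-positive and 128 in the other cells of the arthritic knockout library. The part of marrow cells in the myeloid shares was not tested.

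Within myeloid cells no member passed the test of Notch3 targeting. Over the 2 arthritic pairs edgeR called 0 of 30 members and 0.0104% of 9586 genes, and DESeq2 called 0 members. At an unadjusted edgeR p under 0.05 were 5 of the 30 members and 958 of the 9586 genes. The members were Rrm2 at 2.10, Ccnb2 at 1.5, Tyms at 1.49, Stmn1 at 1.38 and Tk1 at 1.36, with edgeR adjusted p from 0.268 to 0.425. These 5 values were positive, opposite in sign to Tk1, Ccnb2 and Stmn1 in fibroblasts; the difference between the classes was not tested. Rrm2, a subunit of the enzyme that makes deoxynucleotides, was at 17.5, 21.4, 4.78, 34, 4.91 and 10.7 CPM. In the arthritic genotype pair 13 of 17 mitosis and 7 of 11 S-phase genes were at least 1.5-fold higher in the knockout library, where 19.5% of all genes were. In the antibody pair 5 of 16 mitosis and 2 of 11 S-phase genes were lower, where 15.3% of all genes were lower. No mitosis gene and 2 of 11 S-phase genes were higher, and the share of all genes that were higher is not given here. The medians in the antibody pair were -0.45 over the 21 mitosis genes and 0.00 over the 11 S-phase genes, against -0.14 over all genes.

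Endothelial cells, which line the blood vessels, had 5 of 11 S-phase genes and 1 of 21 mitosis genes above the fibroblast level. Their S-phase genes summed to 160, 210, 257, 207, 257 and 199 CPM and their mitosis genes to 28.7, 50.9, 132, 27.7, 162 and 28.5 CPM, from 10 to 159 UMIs per library. Of the members, 7 were higher than in fibroblasts, where edgeR called 19.8% of genes higher: Mcm2 and Mcm3 (both 1.84), Tyms (1.34), Mcm6 (0.76), Pcna (0.75), Hmgb2 (0.75) and Kif23 (2.53). Mitosis-positive endothelial cells were found only in the arthritic wild type library, 2 of 130, and the isotype library, 6 of 211. The other libraries had 0 of 147, 0 of 217, 0 of 220 and 0 of 117, which by the same limit of 3 cells allows shares of up to 2.04, 1.38, 1.36 and 2.56%. In the arthritic wild type and isotype libraries 5 cells held 81.4 and 80.5% of the mitosis UMIs. Endothelial cells of these 2 libraries were also the deepest, with medians of 5201 and 3854 UMIs. Medians in the other libraries, in the order of the counts of 0, were 2761, 1786, 1834 and 2684 UMIs. The part of depth in these shares was not tested.

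In endothelial cells 7 of the 34 members had enough counts for the test of Notch3 targeting, none of them among the 21 mitosis genes, and Tyms passed it. Tyms was at 24.6, 44.8, 73.5, 19.2, 87.4 and 17.1 CPM, high in both arthritic libraries without targeting and low in both with it. Over the 2 arthritic pairs it fell by 2.03 on the log2 scale (SE 0.389, edgeR adjusted p = 5.09e-06), where 6.65% of 6672 genes were called lower. DESeq2 did not call it (adjusted p = 0.118). With no filter on low counts edgeR called 4 members lower, and the share of all genes called there is not given here. The difference between the arthritic and the healthy effect was -3.09 (edgeR adjusted p = 0.00027; 4.28% of genes were called in that direction), again without a DESeq2 call. In the healthy pair Tyms rested on 12 and 22 UMIs.

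B-lineage cells had the highest levels of all 4 classes where enough of them were caught. In the healthy wild type library their mitosis genes summed to 3751 CPM and their S-phase genes to 1088 CPM, and in the arthritic knockout library to 1569 and 852 CPM. Few cells carried these sums. In the healthy wild type library 5 cells held 53.4% of the mitosis and 62.1% of the S-phase UMIs, and in the arthritic knockout library 95.5 and 75.2%. The other libraries held 10, 1, 1 and 6 B-lineage cells and entered no test. Hmgb2 was at 3133 and 1446 CPM, Top2a at 599.9 and 259 CPM and Mki67 at 452 and 64.7 CPM in the 2 libraries. By precursor genes (Rag1, Vpreb1 and others) and mature genes the class parted: 17 of 64 precursors in the healthy wild type and 5 of 41 in the arthritic knockout library were mitosis-positive, against 0 of 15 and 0 of 32 mature cells, which by the limit of 3 cells allows shares of up to 20% and 9.38%. Against fibroblasts edgeR called 33 of 34 members higher, all but Tyms at 1.78 (edgeR adjusted p = 0.0505), where 15.6% of genes were called higher. Against myeloid cells 33 were higher, all but Tk1, where 9.8% of genes were. Leaving out the healthy wild type library leaves a single B-lineage sum, and fewer members then passed against myeloid cells.

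Cycle genes outside the 34 were read from 4 further lists. Over the arthritic pairs in fibroblasts, 2 of 19 other mitosis genes tested fell: Cks2, a subunit of cyclin-dependent kinases, by 1.29 (edgeR adjusted p = 0.0202) and Pbk, a mitotic kinase, by 2.91 (0.0472). Genes called higher made up 2.13% of all genes in this fit. Of 14 brakes on the cycle, 1 rose: Cdkn1a, the inhibitor p21, by 1.74 (SE 0.186, adjusted p = 0.0115). Of 10 drivers of G1, the phase before S, Myc rose by 1.46 (0.0218), and of 19 other S-phase genes Slbp, which binds histone messages, rose by 0.88 (0.049). With no pair block edgeR called 0 of 11791 genes, with 1762 at an unadjusted p under 0.05, and these 5 genes had adjusted p from 0.118 to 0.334. DESeq2 called Cks2, Myc and Cdkn1a but neither Pbk (adjusted p = 0.103) nor Slbp (adjusted p = 0.0685). As background, Cdkn1a and Myc also respond quickly to cell stress. The stress list summed to 36176 CPM in the arthritic knockout against 17770 in the arthritic wild type and 21710 in the anti-Notch3 against 14272 in the isotype library, and its part in these changes was not tested. Between classes, 16 of 28 other mitosis genes and 11 of 22 other S-phase genes were higher in myeloid cells than in fibroblasts, and 1 of each was lower, where 33.8% of all genes were called lower. Cks2 was 2.06 and Gmnn, a licensing inhibitor, 3.06 higher. Gas1, a gene of growth arrest, was at -6.19 and Myc at -3.46 on the log2 scale in myeloid cells against fibroblasts. These 2 do not stand for their lists. Of 12 G1 drivers 8 were higher and 3 lower in myeloid cells, and of 14 brakes 4 were higher and 3 lower. Of all genes, 30.4% were called higher and 33.8% lower.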

How the data were processed

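Single-cell libraries of 6 groups were analysed from the deposited matrices of raw UMI counts per gene and barcode, which the authors made with Cell Ranger 3.0.2 and mouse build mm10, per the submitters' processing notes. Every deposited barcode held at least 501 genes. Barcodes over 10% mitochondrial UMIs were left out. A cell joined a class with at least 3 UMIs from at least 2 of its marker genes and at least 75% of all marker UMIs. Sums of these counts over each class in a library, where at least 30 cells were caught, were tested with edgeR 4.0.16 (TMM, filterByExpr, glmQLFTest) in R 4.3.3, with Benjamini-Hochberg adjustment over all genes and a threshold of 0.05. Class comparisons had the library as a block, Notch3 targeting the pair. The code was checked on simulated counts. In fibroblasts, changes of 1.5 on the log2 scale were recovered in 27% of changed genes over the 2 arthritic pairs. The share was 46% over 3 pairs and 60% for arthritis, and 98 to 99% for changes of 3. Members not called may thus still differ. Scrublet (scanpy 1.11.5) marked 219 of 18077 cells (1.21%), which were kept. Motifs and coordinates came from RefSeq and GENCODE tables of the same build. All 34 members are named; of other cycle lists, up to 4 called genes per list and comparison with the most UMIs. The members and lists were chosen with earlier results of these data known. DESeq2 1.42.0, other scalings, filters, gates and left-out libraries were alternatives. P-values rest on the spread between pooled libraries; intervals cover counting error only.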

Additional observations from a re-analysis of the deposited data

Results flagged for a closer look

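In fibroblasts the effect of Notch3 targeting in the 2 arthritic pairs differed from that in the healthy pair for 7 members, by an interaction term in edgeR. The differences, arthritic minus healthy, were -5.31 for Top2a, -7.36 for Cdk1, -7.61 for Ccna2, -5.43 for Birc5, -6.59 for Ube2c, -5.28 for Cenpa and -3.93 for Stmn1 on the log2 scale. Low counts stand behind some of them, with 1 UMI of Cdk1 in the arthritic knockout and 1 of Ccna2 in the healthy wild type library. In endothelial cells Tyms differed by -3.09 (edgeR), and DESeq2 did not call it (adjusted p = 0.79).

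Some cells outside the 4 classes were mitosis-positive above the counting limit. Of cells gated as erythroid, 81.0% of 21 in the healthy wild type and 77.8% of 9 in the arthritic knockout library were positive. Of 27 neutrophil-gated cells in the arthritic knockout library 29.6% were. Of cells in no gate, 3.82% in the arthritic knockout and 5.26% in the isotype library were.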

How the results depend on the processing

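Of 300 alternative values for the comparisons, 277 kept their direction and their side of the threshold, stayed within 1.5 times of a count, or, for a mean share, moved by less than 1 SD over the 6 libraries. The others follow, each with its cause not tested unless stated. Between classes, 24 to 30 members were higher in myeloid cells than in fibroblasts when each library was left out in turn, and 19 without both marrow-rich libraries; against myeloid cells 7 to 33 were higher in B-lineage cells. For the 2 arthritic pairs, members lower in fibroblasts numbered 11 with no filter. That fit called 1133 of 18528 genes in either direction, against 432 of 11791 in the main fit. With no pair block 0 members were lower, where 0 of 11791 genes were called. In endothelial cells 4 members were called with no filter and 0 by DESeq2, which called 248 genes there. In myeloid cells 4 were higher with no filter. Over 3 pairs, leaving out each pair gave 0 to 4 lower members in fibroblasts and 0 to 1 in endothelial cells. With no filter 3 were higher in myeloid and 2 lower in endothelial cells. For arthritis, with no filter, 2 were lower in myeloid and 1 higher in endothelial cells. DESeq2 called 0 members in the endothelial interaction. For the other counts under alternatives, the share of all genes called is not given here.

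Mean shares moved with the gene count needed and with depth. With 1 gene fewer, 5.12% of myeloid cells were mitosis-positive and 1.98% of fibroblasts S-phase-positive. Thinned to 2000 UMIs, S-phase-positive shares were 0.0919% in fibroblasts and 0.529% in myeloid cells. Another 9 mean shares moved by over 1.5 times but by less than 1 SD. For mitosis these were 1.90% (1 gene fewer) and 0.549% (thinned) against 1.04% in fibroblasts, and 1.54% (1 gene fewer) and 0.418% (stricter gate) against 0.730% in endothelial cells. For S phase they were, with 2 genes more, 0.270% against 0.654% in fibroblasts, 1.76% against 3.44% in myeloid and 0.75% against 1.81% in endothelial cells, the last at 4.06% with 1 gene fewer and 0.746% thinned. Thinning reversed endothelial minus fibroblast mitosis (0.226 points, exact p = 0.875) and myeloid minus endothelial S phase (-0.218 points, exact p = 0.688). Under a stricter gate, endothelial minus fibroblast mitosis was -0.56 points (exact p = 0.0312). Myeloid minus fibroblast S phase was 1.49 points with 2 genes more and 3.02 in unthinned cells of 2000 UMIs or more (exact p = 0.0312 for both). The median of all genes moved by over 0.1 between scalings for B-lineage cells against fibroblasts (-0.53 by TMM, -0.23 by DESeq2) and against myeloid cells (-0.52, -0.11), and for endothelial cells (-0.13, -0.01). Fibroblast mitosis counts of 144 to 1996 UMIs per library limit the precision.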

Other observations

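The make-up of the mitosis signal differed between libraries and classes, for 2 pairs of genes chosen after their values were seen. Cenpa and Ccnb2 gave 39% of the fibroblast mitosis UMIs in the arthritic wild type library (exact interval 35.4 to 42.6%), against 23.7% in the isotype (21.9 to 25.7%) and 18.1% in the healthy knockout library (16.1 to 20.3%). Top2a and Mki67 gave 5.31% in the arthritic wild type and 10.0% in the isotype library. In myeloid cells of the healthy wild type library Top2a and Mki67 gave 26.8%, against 8.6 to 14.5% in the other libraries. In B-lineage cells they gave 28.0% in the healthy wild type and 20.6% in the arthritic knockout library. Cells of the same library share depth and free RNA, and these shares carry counting intervals only.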
